A study of Mus musculus with 16 samples.

Results

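The calcium/calmodulin-dependent kinase II (CaMKII) genes of the mouse were followed through long-read RNA sequencing of the cortex and striatum of R6/2 and non-transgenic (NT) mice. The 4 genes, Camk2a, Camk2b, Camk2d and Camk2g, were chosen by name, with earlier results of these data known, among 21627 annotated genes with at least 1 read. They held 10133 of 9697336 gene reads (0.104%). Counts of these genes set beside shares of all genes below are therefore descriptions and not tests of the set. R6/2 mice (strain B6CBA-Tg(HDexon1)62Gpb/3J) carry, as a transgene under the human promoter, the first exon of human HTT with an expanded CAG repeat, and NT mice lack it. All mice were male and 3 months old, and each of the 4 groups (cortex NT, cortex R6/2, striatum NT and striatum R6/2) had 4 samples, 16 in all. In PacBio Iso-seq, 1 read spans a whole cDNA, and the deposited tables hold the number of reads that TALON gave to each isoform. The transgene was not among the genes analysed here, so the genotype labels were not checked by it. Whether cortex and striatum of the same number come from the same mouse is not given in the sources used here, so p-values measure the spread between these samples.

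CaMKII is a serine/threonine kinase that calcium-loaded calmodulin switches on and that can then phosphorylate itself, which keeps it active after the calcium signal has passed. Its subunits, each from 1 of the 4 genes, assemble through a C-terminal association domain into large ring-shaped holoenzymes, and the kinase domain and the association domain are joined by a variable linker whose exons are spliced differently between tissues and stages of development. Camk2a and Camk2b are the neuronal genes, known for their part in synaptic plasticity, and Camk2d and Camk2g are expressed in many tissues.

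Some of the exons in which isoforms of these genes differ are shown here, because statements on exon use below refer to them. Positions and sequences are those of GENCODE M21 transcripts on GRCm38 (mm10), read 5′ to 3′ on the strand of the gene, and each exon below lies inside the coding sequence. Camk2b (chr11:5969644-6066362, minus strand) and Camk2g (chr14:20734875-20794088, minus strand) share a linker exon of 45 bases, at chr11:5981070-5981114 in Camk2b and at chr14:20744604-20744648 in Camk2g. The exons have 32 of 45 bases in common (71.1%), and capitals mark the bases that differ.
Camk2b exon 16: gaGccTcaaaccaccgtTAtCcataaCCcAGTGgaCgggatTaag
Camk2g exon 16: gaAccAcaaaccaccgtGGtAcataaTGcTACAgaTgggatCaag
A linker exon of 33 bases, known to encode a nuclear localization signal, is found at chr3:126802937-126802969 in Camk2d and at chr14:20747819-20747851 in Camk2g. These exons share 26 of 33 bases (78.8%), with capitals again at the differences.
Camk2d exon of 33 bases: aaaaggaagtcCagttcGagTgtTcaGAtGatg
Camk2g exon 14: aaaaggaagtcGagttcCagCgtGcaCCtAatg
Camk2d (chr3:126596302-126846326, plus strand) also has a pair of 73-base exons in its kinase domain, at chr3:126770785-126770857 and chr3:126771774-126771846. Each annotated isoform that spans them has one or the other, and 50 of 73 bases are the same (68.5%).
Camk2d exon 6: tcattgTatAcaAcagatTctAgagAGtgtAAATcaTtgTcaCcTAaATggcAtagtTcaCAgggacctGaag
Camk2d alternative exon 6: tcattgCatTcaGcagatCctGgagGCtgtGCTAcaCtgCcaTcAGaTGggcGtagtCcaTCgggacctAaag
Exon 13 of Camk2b, at chr11:5987057-5987131, is left out by the same annotated isoform as exon 16.
Camk2b exon 13: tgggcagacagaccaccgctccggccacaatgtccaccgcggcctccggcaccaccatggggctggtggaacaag

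Sequencing depth lay between 252885 and 1496196 reads per sample. The files give 4 striatal samples (NT 1, NT 2, R6/2 2 and R6/2 3) a pair of count sets each, and these were summed. The mean isoform length was 2125 to 2197 nt in these 4 samples and 1589 to 1840 nt in the other striatal samples, so the number of count sets, which is balanced over genotypes, was a term in striatal fits. The number of count sets was also a term in fits of all 16 samples, where it is not balanced over regions. Tissue labels were checked by markers. The summed level of 8 markers of striatal projection neurons was 391 to 476 CPM (defined below) in NT cortex and 10298 to 14170 CPM in NT striatum, and that of 8 markers of cortical excitatory neurons was 397 to 601 and 172 to 188 CPM. In R6/2 mice the striatal markers summed to 1914 to 3335 CPM in the striatum and to 95.5 to 126 CPM in the cortex, without overlap with NT mice, and the cortical markers to 188 to 234 CPM in the cortex. Summed astrocyte markers were also below NT samples in R6/2 cortex (1301 to 1731 against 2247 to 3521 CPM) and striatum (1280 to 1841 against 1971 to 3878 CPM). Most of these sums came from Aldoc, the only 1 of 6 that passed in each region. Its mean was 2193 CPM in NT and 898 CPM in R6/2 cortex, and 2218 and 973 CPM in the striatum. Lamp5, the only 1 of 3 tested cortical markers that passed in the cortex, gave most of the cortical marker sum in NT cortex. Its mean was 357 CPM there and 82.3 CPM in R6/2 cortex. These sums therefore follow single genes and do not stand for a whole cell type. Oligodendrocyte and microglial markers overlapped between genotypes, and choroid plexus markers reached 9635 CPM in 1 striatal NT sample. In bulk tissue, fewer cells of a type and less RNA per cell cannot be told apart.

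The 4 genes were read in 824 isoform models of 698596. TALON calls an isoform known when it matches an annotated transcript, NIC when it joins annotated splice sites in an unannotated combination, NNC when at least 1 splice site is unannotated, and ISM when it matches only part of the junctions of an annotated transcript. Known, NIC and NNC reads are called complete here. The genes differed widely in these classes. Of 6141 Camk2b reads, 3706 were known, 1425 NIC, 226 NNC and 784 ISM (12.8%). Camk2g had 2266 reads, of which only 199 (8.78%) matched an annotated transcript and 1059 were NIC and 501 NNC. Camk2d had 480 reads (243 known, 88 NIC, 14 NNC and 135 ISM). For Camk2a, 939 of 1246 reads (75.4%) were ISM, and 685 of these had a single exon, so that 307 complete reads were left in all 16 samples. Isoform shares of Camk2a and Camk2d therefore rest on few reads.

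Levels are given in CPM, counts of a gene scaled to the normalized library size. A read covers a whole cDNA whatever its length, so no division by length was made. Of Camk2a reads, however, 75.4% matched only part of a transcript. Their mean isoform length was 2414 nt over all Camk2a reads, against 4970 nt for the leading Camk2a isoform. Whether cDNAs of some genes were captured less often was not tested, so the order of genes below describes reads. The cDNA was amplified by PCR, so reads are not independent RNA molecules. Camk2b had the highest mean level in each of the 4 groups and Camk2d the lowest. In NT cortex the mean was 691 ± 56.5 CPM for Camk2b (SD, n = 4), 445 ± 63.4 for Camk2g, 225 ± 58.5 for Camk2a and 55.5 ± 17.4 for Camk2d. No neighbours in this order overlapped between samples. In NT striatum Camk2b had 817 ± 206 CPM, with Camk2a at 140 ± 25.6, Camk2g at 132 ± 61.1 and Camk2d at 34.1 ± 18.7, and here Camk2g overlapped with both of its neighbours. The plot of levels by sample shows all 16 values of each gene.

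**Figure D1:**
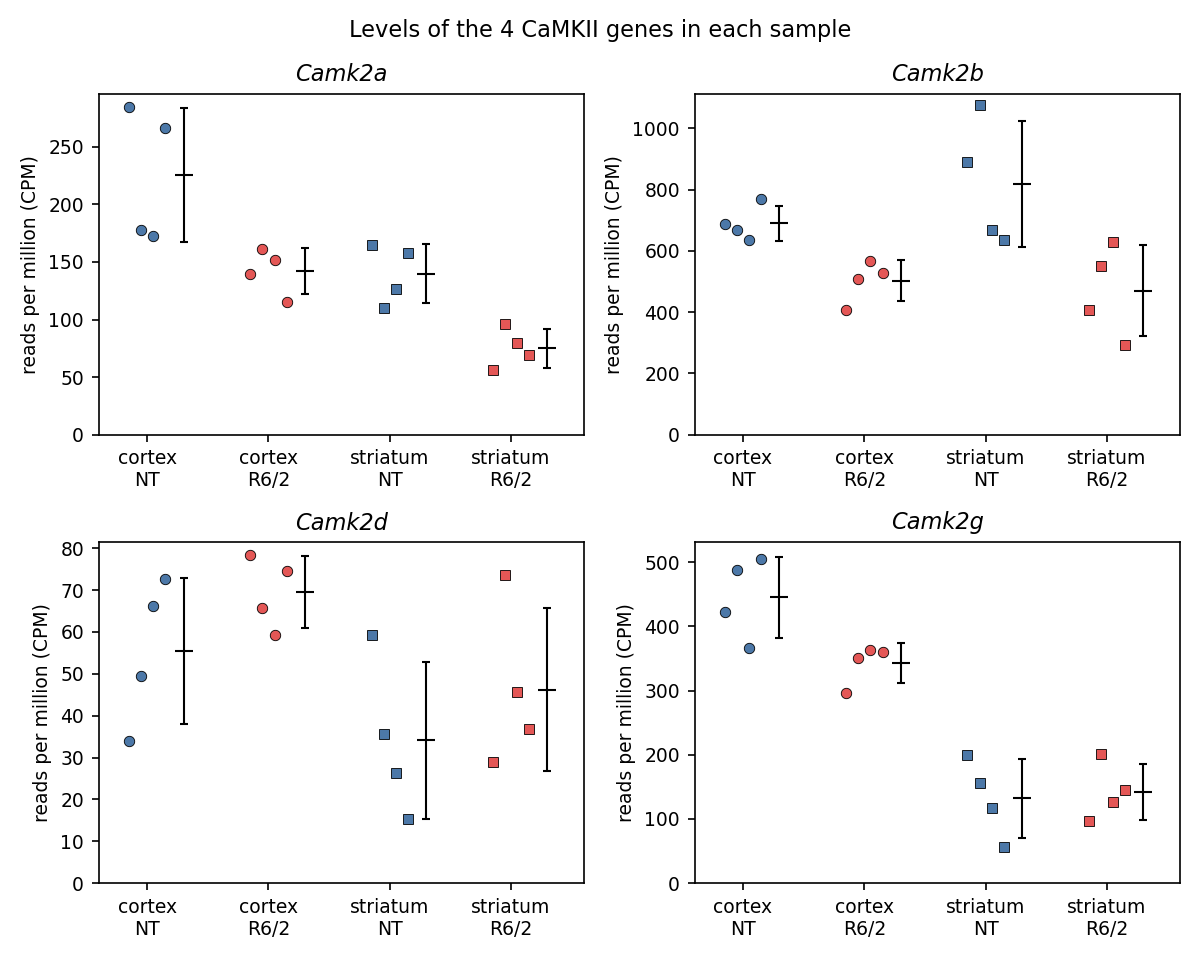
Levels of the 4 CaMKII genes in CPM on linear axes from 0, 1 panel per gene, for the 16 samples in 4 groups (points: samples; bars: mean and SD of 4 samples). NT samples of Camk2a and Camk2b lie above every R6/2 sample of the same region, Camk2g does so only in the cortex, and Camk2d overlaps in both regions.

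The first comparison asked how the kinase genes differed between R6/2 and NT mice within a region. In the striatum the neuronal genes Camk2a and Camk2b were lower in R6/2 mice, and Camk2d and Camk2g did not pass the test. Camk2a was at 164, 110, 126 and 157 CPM in striatal NT samples 1 to 4 and at 56.2, 96.2, 79.5 and 68.8 CPM in R6/2 samples. The groups did not overlap. The log2 fold change was −0.87 (SE 0.19, adjusted p = 0.0231, edgeR quasi-likelihood test with Benjamini-Hochberg adjustment over all genes). Camk2b was at 891, 1075, 668 and 635 CPM in NT and at 409, 552, 628 and 292 CPM in R6/2 samples. Again no R6/2 sample reached the lowest NT sample, although R6/2 3 and NT 4 were close. Its log2 fold change was −0.83 (SE 0.17, adjusted p = 0.0135, edgeR). Of the 4 genes, 2 passed in the striatum, both lower, where 4.34% of 7658 genes tested passed (3.84% lower). Both calls were lost when the number of count sets was left out of the fit (log2 fold changes −0.90 and −0.82, adjusted p = 0.135 and 0.285, with 39 genes called in place of 332) and both without R6/2 4 (adjusted p = 0.0742 and 0.0722). Camk2a was also lost without NT 1, NT 3, R6/2 1 or R6/2 3 (adjusted p = 0.0575 to 0.0919), without ISM reads (−0.66, adjusted p = 0.438) and with the first count set only (−0.78, adjusted p = 0.0776), and Camk2b without R6/2 2 (adjusted p = 0.0829). The marker sums of striatal projection neurons moved with these results, with 6 of 8 markers lower (1914 to 3335 against 10298 to 14170 CPM in sum), and their part in them was not tested.

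Camk2d had 59.2, 35.7, 26.3 and 15.2 CPM in striatal NT samples and 28.9, 73.5, 45.6 and 36.9 CPM in R6/2 samples. The groups overlapped, and as few as 3 reads stood behind a sample (NT 4). The log2 fold change was 0.38 (SE 0.26, adjusted p = 0.509, edgeR). Camk2g had 200, 156, 117 and 55.9 CPM in NT and 97.2, 201, 127 and 145 CPM in R6/2 samples. These also overlapped, with a log2 fold change of 0.06 (SE 0.23, adjusted p = 0.952, edgeR) whose sign depended on single samples.

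In the cortex none of the 4 genes passed, where 3.27% of 6121 genes did (2.81% lower). At an unadjusted p under 0.05, 2 of the 4 (Camk2a and Camk2b) and 1055 of all genes would have been called. Camk2a was at 285, 178, 173 and 266 CPM in NT and at 139, 161, 152 and 115 CPM in R6/2 samples. All 4 R6/2 samples were below all 4 NT samples, and the log2 fold change was −0.66 (SE 0.20, adjusted p = 0.0778, edgeR), or −0.76 (adjusted p = 0.0329) without NT 3, the sample with the fewest reads. Camk2b was at 688, 670, 636 and 769 CPM against 409, 507, 566 and 529 CPM. These did not overlap either, with a log2 fold change of −0.45 (SE 0.18, adjusted p = 0.214, edgeR). Camk2g was at 423, 488, 366 and 504 CPM in NT and 296, 350, 364 and 361 CPM in R6/2 mice, a difference of −0.37 (log2, SE 0.18, adjusted p = 0.300), with NT 3 and R6/2 3 almost touching. Camk2d overlapped (33.8, 49.4, 66.1 and 72.6 against 78.3, 65.8, 59.2 and 74.5 CPM). Its log2 fold change was 0.33 (SE 0.25, adjusted p = 0.541).

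Whether the genotype difference itself differed between regions was tested as an interaction over all 16 samples. None of the 4 genes passed (adjusted p = 0.864 to 0.999, edgeR), and 0.0406% of 7390 genes did (3 genes; 430 at an unadjusted p under 0.05). The striatal minus the cortical log2 difference was −0.17 for Camk2a (SE 0.29), −0.35 for Camk2b (SE 0.24), 0.08 for Camk2d (SE 0.36) and 0.48 for Camk2g (SE 0.29). No difference of the genotype effect between the regions was shown for any of them.

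Because subunits of all 4 genes enter the same holoenzymes, the share of each gene in the summed CaMKII reads was also compared. Camk2d made up 4.50, 2.59, 2.80 and 1.76% of CaMKII reads in striatal NT samples and 4.88, 7.96, 5.17 and 6.79% in R6/2 samples. All R6/2 samples lay above all NT samples, the closest pair by less than 1 percentage point. The means were 2.91% ± 1.15 and 6.20% ± 1.44 (SD, n = 4; exact permutation p = 0.0286, the smallest that 4 against 4 allows, and 0.0556 within numbers of count sets, also the smallest; 0.152 after adjustment over 8 tests). On complete reads alone the exact p was 0.0571, and with the first count set only 0.0857. In the cortex the Camk2d share was 3.94% ± 1.27 and 6.66% ± 1.40 (exact permutation p = 0.0571). Camk2b held 72.7% ± 4.31 of CaMKII reads in NT and 63.5% ± 8.17 in R6/2 striatum (exact permutation p = 0.143), and Camk2g 11.4% ± 3.64 and 19.8% ± 5.52 (exact permutation p = 0.0571). In the cortex Camk2b held close to 48% in both genotypes (48.9% ± 1.61 and 47.4% ± 2.41). The plot of family shares gives the 4 groups side by side. Of 8 such shares, the groups did not overlap in 1, and no share over all genes was counted for this measure. The 4 shares of a sample are parts of a whole, so a share can rise because others fall. The striatal level of Camk2d itself overlapped between genotypes (log2 fold change 0.38, adjusted p = 0.509, edgeR).

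**Figure D2:**
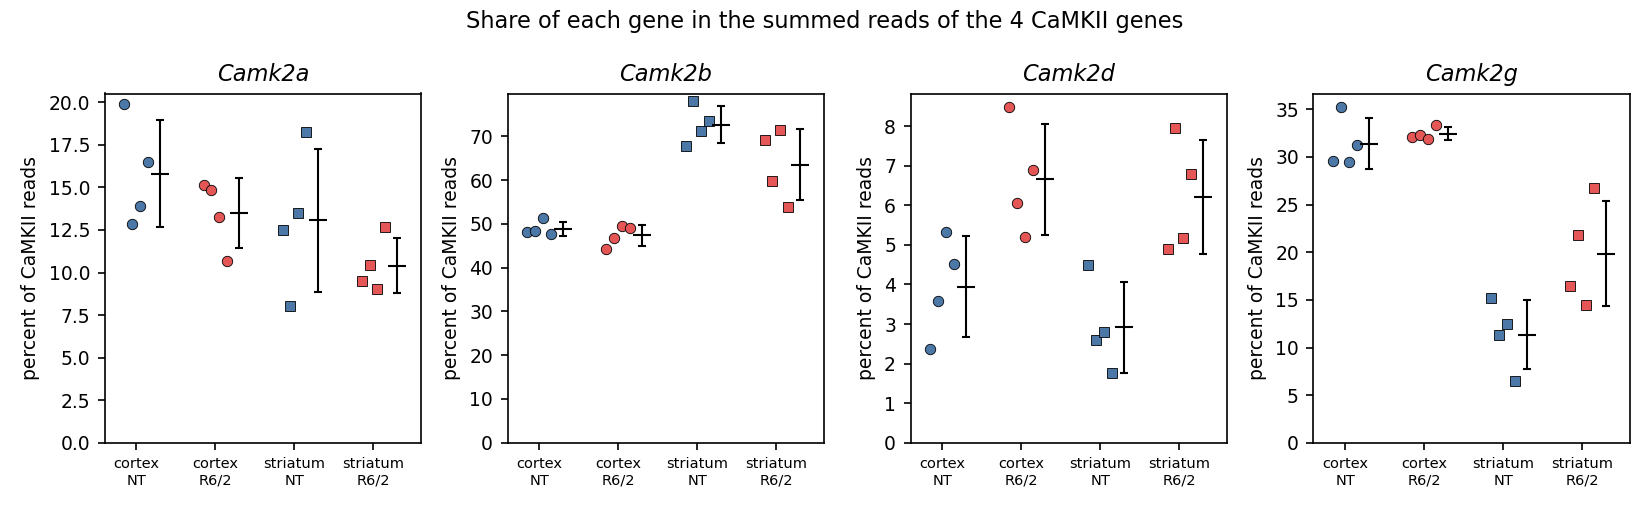
Share of each CaMKII gene in the summed CaMKII reads, in percent, for the 16 samples in 4 groups (points: samples; bars: mean and SD of 4 samples). Camk2b is the largest share in every group, at a mean of 48.9% in NT cortex and 72.7% in NT striatum, and the striatal Camk2d share is higher in all 4 R6/2 samples than in NT samples.

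Between regions, Camk2g, Camk2a and Camk2d were lower in the striatum than in the cortex of NT mice, and Camk2b did not pass. All samples of 2 count sets were striatal, so the term for count sets could be estimated in the striatum only. With the term, the region differences refer to striatal samples of 1 count set, whose mean isoform lengths were 1589 to 1840 nt. Without it, 1101 genes passed in NT mice in place of 2467. Camk2g showed the largest of the 4 differences, with 366 to 504 CPM in the cortex and 55.9 to 200 CPM in the striatum. Its log2 difference, striatum against cortex, was −2.11 (SE 0.25, adjusted p = 1.29e-06, edgeR). Camk2a (173 to 285 against 110 to 164 CPM) differed by −0.86 (SE 0.23, adjusted p = 0.00635), and Camk2d (33.8 to 72.6 against 15.2 to 59.2 CPM, which overlapped) by −1.20 (SE 0.33, adjusted p = 0.00731). For Camk2b the value was −0.12 (SE 0.19, adjusted p = 0.650), while its mean CPM was higher in the striatum (817 against 691), and the value was 0.25 without the term for count sets. Thus 3 of 4 passed, all lower, against 33.4% of 7390 genes (17.6% lower). In R6/2 mice the same 3 genes were lower in the striatum, where 27.3% of genes passed (14.3% lower). The log2 differences were −1.64 for Camk2g (SE 0.24, adjusted p = 2.84e-05), −1.03 for Camk2a (SE 0.24, adjusted p = 0.00265) and −1.12 for Camk2d (SE 0.29, adjusted p = 0.00638), and Camk2b was at −0.48 (SE 0.19, adjusted p = 0.0692). The difference of Camk2a in NT mice was lost without NT cortex 1 (−0.53, adjusted p = 0.0875), without the filter on low counts (−0.64, adjusted p = 0.0618), with genomic reads added (−0.53, adjusted p = 0.0767) and without ISM reads (−0.11, adjusted p = 0.906), and that of Camk2d without ISM reads (−0.94, adjusted p = 0.0971) and without the term for count sets (−0.58, adjusted p = 0.287). In R6/2 mice Camk2a was lost without ISM reads (−0.43, adjusted p = 0.611), Camk2d without the term (−0.55, adjusted p = 0.312), and Camk2b passed without R6/2 cortex 1 (−0.57, adjusted p = 0.0387).

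Camk2b, the largest contributor, showed the clearest change in isoforms. Its leading transcript is the annotated ENSMUST00000109813 of 21 exons (3667 reads), which includes exons 13 and 16 shown above. A NIC isoform of 20 exons, TALONT000177350 (1130 reads, 3751 nt), joins annotated splice sites in a combination of its own. Which exon it lacks is not given in the files, which hold its number of exons and its length only. In NT cortex it made up 7.65, 5.08, 6.67 and 7.34% of complete Camk2b reads, and in R6/2 cortex 19.6, 24.8, 25.9 and 13.8%. The lowest R6/2 sample lay well above the highest NT sample. In NT striatum it held 16.1, 13.5, 13.9 and 10.8%, and in R6/2 striatum 46.5, 40.7, 41.8 and 36%. Here, too, no samples overlapped, and in R6/2 1 it exceeded the annotated isoform. The denominators were 93 to 1174 complete reads per sample. The 95% Wilson interval of TALONT000177350, which covers counting error only, was 10.7 to 17.9% in striatal NT 3 and 40.2 to 53.0% in R6/2 1.

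The annotated isoform took 83.9% ± 0.52 of complete Camk2b reads in NT cortex (SD, n = 4) and 70.8% ± 7.0 in R6/2 cortex. In the striatum it took 74.6% ± 3.32 in NT and 47.6% ± 3.85 in R6/2 mice. The usage test of edgeR (diffSpliceDGE), run on complete isoforms of 10 or more reads, called Camk2b in both regions, with a gene-level adjusted p of 0.00378 in the cortex (4 isoforms) and 1.15e-04 in the striatum (10 isoforms), where 0.36% of 3058 genes and 0.451% of 4437 genes were called. At the level of single isoforms only TALONT000177350 passed. Usage changes are given here as natural logs. For this isoform the change was 1.14 in cortex (adjusted p = 0.00207, edgeR) and 1.111 in striatum (adjusted p = 3.52e-05, edgeR). The annotated isoform itself changed by −0.19 (adjusted p = 1) and −0.44 (adjusted p = 0.454). The cortical call was lost without NT 2, R6/2 2 or R6/2 3 (adjusted p = 0.0980, 0.0528 and 0.103), and the striatal one, kept in each of 8 fits that left out 1 sample, was lost without the term for count sets (adjusted p = 0.504, with 3 genes called). Usage was not shown to change differently between the regions, since the interaction called none of 5641 genes (0.0%; 103 at an unadjusted p under 0.05), and Camk2b stood at an unadjusted p of 0.0684 there. The plot of both isoforms shows the shift in every sample.

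**Figure D3:**
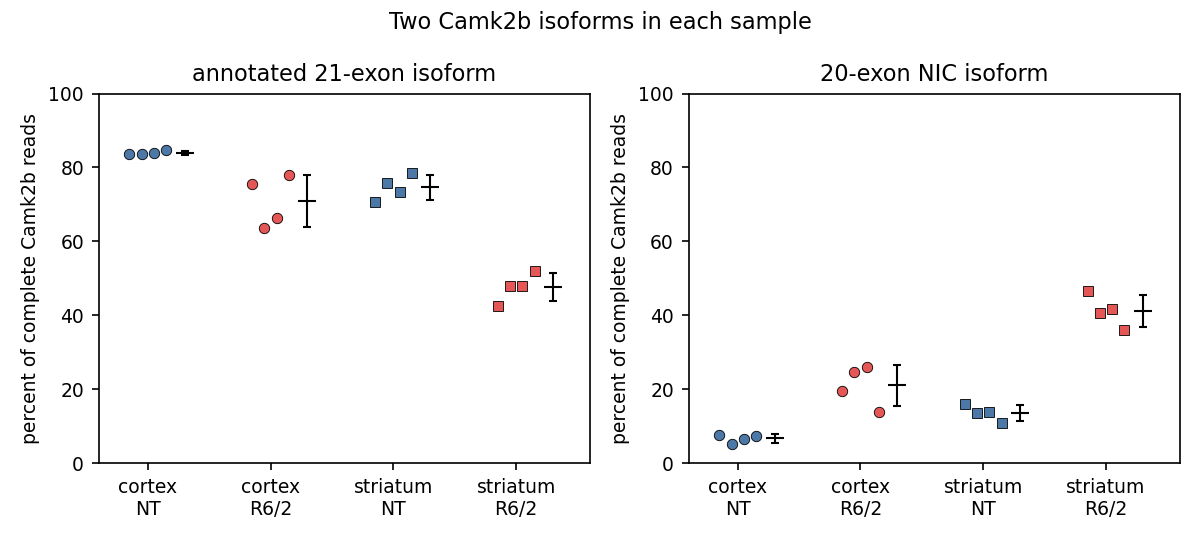
Share of complete Camk2b reads, in percent, held by the annotated isoform of 21 exons (left) and by the NIC isoform of 20 exons (right) in the 16 samples (points: samples; bars: mean and SD of 4 samples). The NIC isoform holds 5.08 to 7.65% in NT and 13.8 to 25.9% in R6/2 cortex, and 10.8 to 16.1% in NT and 36 to 46.5% in R6/2 striatum.

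All 20-exon isoforms of Camk2b together were separated in the same way. Most of their reads are those of TALONT000177350, so this is no separate observation, and it is given without a test or a share over all genes. They held 9.69, 7.81, 6.67 and 8.26% of complete reads in NT cortex and 21.2, 29.4, 29.2 and 17.9% in R6/2 cortex. In NT striatum they held 18.5, 16, 17.6 and 14% and in R6/2 striatum 51.3, 45.9, 46.8 and 38.0%. The groups stayed apart in both regions. Reads of 19 or 22 exons remained at a mean under 2% in each group.

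The share of NIC and NNC isoforms in complete Camk2b reads takes in these forms and is not separate from them. It was 16.3, 16.4, 15.2 and 14.7% in NT cortex and 23.9, 35.5, 33.2 and 21.5% in R6/2 cortex. In the striatum it was 28.0, 23.6, 26.1 and 19.4% in NT and 56.5, 49.9, 51.9 and 48.0% in R6/2 mice. The means differed by 12.9 percentage points in cortex (15.7% ± 0.84 against 28.6% ± 6.86) and by 27.3 in the striatum (24.3% ± 3.74 against 51.6% ± 3.66), each with an exact permutation p of 0.0286, the smallest possible, and 0.0762 after adjustment over 8 tests. Within numbers of count sets the striatal p was 0.0556, again the smallest possible. For Camk2g the cortical share went the other way, at 90.9, 92.0, 98.1 and 93.3% in NT and 86.8, 87.7, 87.7 and 88.0% in R6/2 mice (difference −6.01 percentage points, exact permutation p = 0.0286, adjusted 0.0762). Its striatal share overlapped (86.1% ± 2.35 and 84.7% ± 3.63, exact permutation p = 0.543). Camk2a and Camk2d overlapped in both regions (exact permutation p = 0.257 to 0.714). The groups therefore did not overlap for 2 of 4 genes in cortex and 1 of 4 in striatum, where 3.73% of 4510 and 3.76% of 5848 genes with complete reads to compare did not overlap.

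Camk2g was read mostly as isoforms of 20 to 23 exons that no annotated transcript matches. The 2 most frequent were TALONT000174672 (NNC, 21 exons, 370 reads) and TALONT000174820 (NIC, 20 exons, 269 reads). The NNC isoform took 31.3, 29.1, 25.0 and 25.0% of complete reads in NT cortex and 21.7, 20, 15.8 and 19.7% in R6/2 cortex, without overlap. In the striatum it overlapped (16.7% ± 1.94 in NT and 17.3% ± 5.56 in R6/2 mice). The 20-exon isoform TALONT000174820 took 12.1, 9.71, 13.5 and 12.5% in NT cortex and 16, 21.5, 16.7 and 18.8% in R6/2 cortex, again without overlap. In NT striatum it took 11.4, 10.7, 12.8 and 0% (0 of 6 complete reads in NT 4, which allows a share of up to 50.0%) and in R6/2 striatum 22.7, 21.6, 20.2 and 15.8%. All R6/2 samples were above all NT samples here as well. No Camk2g isoform and neither region passed the usage test (gene-level adjusted p = 1 in both, with 15 and 13 isoforms, edgeR). For TALONT000174820 the isoform-level adjusted p was 0.920 in the cortex and 0.876 in the striatum (edgeR). How many of all isoforms have groups without overlap was not counted. An F test per gene, which sums the evidence over isoforms where the Simes test rests on the strongest one, gave Camk2g an adjusted p of 0.00570 in the cortex, where it called 28 of 3058 genes.

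Grouped by number of exons, Camk2g reads of 20 exons had larger mean shares in R6/2 mice in both regions, a grouping that was looked at after the values were seen and is given without a test. These reads include those of TALONT000174820, so the grouping is no separate observation. Reads of 20 exons made up 19.2, 16, 19.2 and 19.2% of complete Camk2g reads in NT cortex and 30.2, 36.9, 33.5 and 31.6% in R6/2 cortex. The gap between the groups was wider than either group. In the striatum the shares were 22.7, 21.3, 23.4 and 16.7% in NT and 43.2, 36.6, 39.4 and 23.7% in R6/2 samples, where R6/2 4 (38 complete reads) was next to the highest NT sample. Reads of 22 exons were at 22.2, 25.1, 28.8 and 25.5% in NT cortex and at 14.2, 14.6, 18.2 and 20.5% in R6/2 cortex. In the striatum they were at 22.7, 26.0, 21.3 and 16.7% and at 13.6, 15.7, 11.1 and 15.8%, so that R6/2 samples were below NT samples in both regions. The closest striatal pair was R6/2 4 and NT 4, where NT 4 had 1 of 6 complete reads (95% Wilson interval 3.01 to 56.4%). Reads of 23 exons had a mean of 6.34% in NT and 2.89% in R6/2 cortex. The plot of Camk2g reads by number of exons sets the 4 classes side by side.

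**Figure D4:**
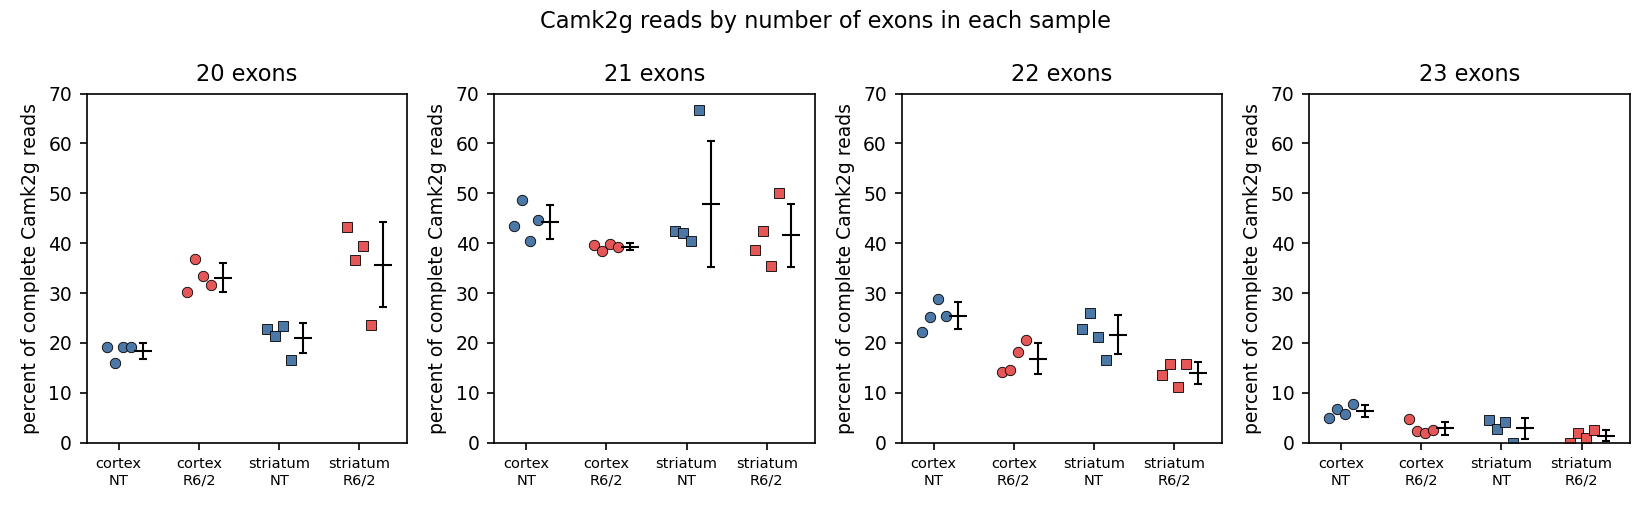
Share of complete Camk2g reads with 20, 21, 22 or 23 exons, in percent, in the 16 samples (points: samples; bars: mean and SD of 4 samples). The share of 20-exon reads is at most 19.2% in NT and at least 30.2% in R6/2 cortex, and at most 23.4% in NT and at least 23.7% in R6/2 striatum, while 22-exon reads lie lower in R6/2 samples. Striatal NT 4 has 6 complete reads only.

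Exons per complete read were then averaged for each of the 4 genes. The average takes in the 20-exon reads above, so it is no separate observation. For Camk2b it was 20.74, 20.74, 20.74 and 20.88 in striatal NT samples and 20.39, 20.36, 20.50 and 20.43 in R6/2 samples. The groups did not overlap (difference −0.357 exons, exact permutation p = 0.0286, 0.229 after adjustment over 8 tests, and 0.0556 within numbers of count sets). In the cortex it was 20.77 ± 0.14 and 20.71 ± 0.04 (exact permutation p = 0.429). For Camk2g it was 20.95 ± 0.22 in NT and 20.61 ± 0.10 in R6/2 cortex (exact permutation p = 0.0571), and 20.82 ± 0.14 and 20.55 ± 0.33 in the striatum (exact permutation p = 0.257). Camk2d and Camk2a overlapped in both regions (exact permutation p = 0.143 to 0.657). The only gene of the 4 without overlap was thus Camk2b in the striatum, where 3.27% of 5848 genes had no overlap, and none had in the cortex, where 3.48% of 4510 did not overlap. With ISM reads added, the Camk2b differences became 0.648 (cortex) and 0.0657 (striatum).

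That ISM share of Camk2b was 19.7, 14.1, 16 and 14.2% of gene reads in NT cortex and 14, 10.5, 6.38 and 11.4% in R6/2 cortex. The highest R6/2 and the lowest NT sample were next to each other (difference of means −5.43 percentage points, exact permutation p = 0.0286, 0.229 after adjustment over 8 tests). In the striatum it overlapped (16.3% ± 6.36 and 13.1% ± 2.89, exact permutation p = 0.514). The other genes overlapped in both regions, so the groups did not overlap for 1 of 4 genes in cortex and 0 of 4 in striatum, where 2.95% of 5992 and 1.54% of 7462 genes had no overlap. The ISM share of Camk2a was far above that of the others, at 83.3 to 100% in NT cortex and 43.2 to 90.3% in NT striatum, and its sample with 100% (cortex NT 3) had no complete read at all. Across these measures (exons per read, NIC and NNC share, ISM share and family share) the difference between regions in the genotype effect was tested 16 times by exact permutation, and the lowest p was 0.0563, for exons per Camk2b read (0.777 after adjustment).

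For Camk2a the annotated isoform ENSMUST00000102888 of 18 exons led, with 268 of 307 complete reads. Its share was 78.6% ± 18.8 in NT and 74.9% ± 19.0 in R6/2 cortex, and 86.8% ± 13.5 and 81.7% ± 13.4 in the striatum, with as few as 3 complete reads in a striatal sample. Camk2a had a single isoform with at least 10 reads and could not enter the usage test. The complete reads of Camk2d were spread over many forms. The most frequent were ENSMUST00000106402 (20 exons, 62 reads), ENSMUST00000200171 (21 exons, 50 reads) and ENSMUST00000149311 (5 exons, 35 reads), the last at a mean of 6.92% in NT and 12.5% in R6/2 cortex, and of 6.47% and 18.6% in the striatum, with SDs of 5.16 to 9.44. Camk2d did not pass the usage test in either region (adjusted p = 1, edgeR). Between striatum and cortex of NT mice, the test called none of Camk2b, Camk2d and Camk2g (adjusted p = 0.688 to 0.996), where 0.372% of 5641 genes were called.

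Exon use could be read from known isoforms alone, since the files give no exon structure for the others. Exons with at least 10 including and 10 skipping reads in a region gave 14 comparisons between genotypes, and in none of them did the groups separate fully (exact permutation p = 0.0571 to 0.657). These comparisons are not all separate. Exons 13 and 16 of Camk2b gave the same values, as did exons 14 and 15 of Camk2d, and exon 6 of Camk2d and its alternative are complements. The exons of Camk2b shown above (13 and 16) were included in 98.6 to 99.7% of spanning known reads in NT and in 96.8 to 100% in R6/2 striatum. Both were left out by the same annotated isoform, so that they are 1 observation. NIC and NNC reads did not enter this share, and their use of exons 13 and 16 is not known. They made up a mean of 24.3% of complete Camk2b reads in NT and 51.6% in R6/2 striatum. The kinase-domain exon 6 of Camk2d was used by 64 and its alternative by 11 cortical reads, and by 91 and 8 striatal reads. Inclusion of exon 6 was 91.8% ± 11.8 in NT and 79.7% ± 21.3 in R6/2 cortex (exact permutation p = 0.457). Exons 14 and 15 of Camk2d, of 60 and 42 bases, which are used together, were included in 94.95% ± 6.15 of reads in NT cortex and 62.5% ± 32.3 in NT striatum (exact permutation p = 0.143). Without striatal NT 4, which had 1 such read, the regions did not overlap (difference −45.0 percentage points, exact permutation p = 0.0286), and without striatal NT 3, with 4 such reads, the difference was −19.95 points (exact permutation p = 0.171).

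In known isoforms, the 33-base exon known for its nuclear localization signal was used to different degrees in the 3 genes that have it. Camk2g included it in 35 of 107 cortical reads (32.7%, 95% Wilson interval 24.6 to 42.1) and in 25 of 92 striatal reads (27.2%, 19.1 to 37.0). Camk2a included it in 3 of 75 and 6 of 206 reads (4% and 2.91%), and Camk2d in 0 of 75, which allows a share of up to 4%, and 1 of 99. These are reads of known isoforms pooled over samples, and the intervals cover counting error only. Known reads were 199 of 1759 complete reads for Camk2g, 288 of 307 for Camk2a and 243 of 345 for Camk2d. The genes are thus compared on unlike parts of their reads, and use of the exon in the other reads is not known. By sample, Camk2g inclusion was 22.2, 50.0, 100 and 57.1% in NT cortex, on 9, 14, 1 and 14 reads, and 21.4, 18.8, 32.0 and 21.4% in R6/2 cortex, on 14 to 25 reads. The R6/2 samples were mostly lower (difference −33.9 percentage points, exact permutation p = 0.0571), NT 1 lay among them, and without NT 1 the groups separated (difference −45.6 percentage points, exact permutation p = 0.0286). Without NT 3, whose 100% was a single read, the difference was −19.7 percentage points (exact permutation p = 0.0857). In the striatum the direction was the opposite (18.1% ± 14.1 in NT and 38.5% ± 24.1 in R6/2 mice, exact permutation p = 0.229), but only in the samples of 1 count set (51.2 percentage points), since those of 2 sets had −10.5.

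Partners of CaMKII were followed through lists of calmodulin and its buffers, CaMKII inhibitors, other calmodulin-dependent kinases, and docking partners and substrates. The lists were chosen with earlier results of these data known, so their counts describe them and test nothing. None of their genes passed as higher in R6/2 mice in either region, and the counts of lower genes stand beside 2.81% of all genes in cortex and 3.84% in striatum. Of 6 genes of calmodulin and its buffers, 1 was lower in cortex and 2 were in striatum. Pcp4, a small protein that speeds calcium exchange at calmodulin, was lower in both (log2 fold change −0.79, SE 0.19, adjusted p = 0.0188 in the cortex, and −1.68, SE 0.26, adjusted p = 0.00234 in the striatum, edgeR). Its striatal levels were 901, 1039, 4369 and 9046 CPM in NT and 1334, 365, 427 and 1936 CPM in R6/2 samples, which overlapped unless samples of equal numbers of count sets are compared. Nrgn (neurogranin), which binds calmodulin at rest, passed in the striatum (−1.22, SE 0.24, adjusted p = 0.0124, edgeR). Gap43, a growth-associated protein that also binds calmodulin, did not pass in either region. The list medians of the log2 fold change were −0.09 (cortex) and −0.49 (striatum), and those of all genes tested 0.01 and −0.00218.

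The CaMKII inhibitor Camk2n1 was the only inhibitor of 2 that passed the filter on low counts. It was at 172, 121, 55.9 and 58.5 CPM in NT cortex and at 68.8, 48.8, 57.8 and 38.5 CPM in R6/2 cortex, which overlapped (−0.92, SE 0.30, adjusted p = 0.111, edgeR). In the striatum it was at 23.7, 105, 29.6 and 55.9 CPM in NT and at 13.7, 2.16, 18.0 and 9.83 CPM in R6/2 samples, without overlap (−2.35, SE 0.57, adjusted p = 0.0325, edgeR). The R6/2 values are near the floor and rest on few reads, since in R6/2 4 a level of 36.9 CPM (Camk2d) was 15 reads. Among the 7 other calmodulin-dependent kinases, 2 of 6 tested were lower in cortex and 4 of 5 in striatum, with list medians of −0.63 and −0.98. Camkk2, which activates CaMKI and CaMKIV, was lower in both regions (−1.86, SE 0.22, adjusted p = 3.53e-05, and −1.43, SE 0.23, adjusted p = 0.00323, edgeR), as was the pseudokinase Camkv (−0.81 and −0.92, adjusted p = 0.0271 and 0.0195). Camk4 and Camkk1 passed in the striatum only (−1.36 and −0.98, adjusted p = 0.00172 and 0.0485), and in the cortex they had −0.46 and −1.07 (adjusted p = 0.278 and 0.0576). Of 15 docking partners and substrates, 0 of 6 tested passed in cortex and 2 of 8 in striatum, namely Actn2, an actin crosslinker of the spine (−1.42, SE 0.24, adjusted p = 0.00416), and Ppp1r9b (spinophilin), a scaffold of protein phosphatase 1 (−1.14, SE 0.22, adjusted p = 0.00964). The glutamate receptor genes tested (Grin1, Grin2b, Gria1 and Gria2) did not pass in either region. The list medians were −0.19 and −0.52. The plot of pathway genes sets these against the 4 kinases.

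**Figure D5:**
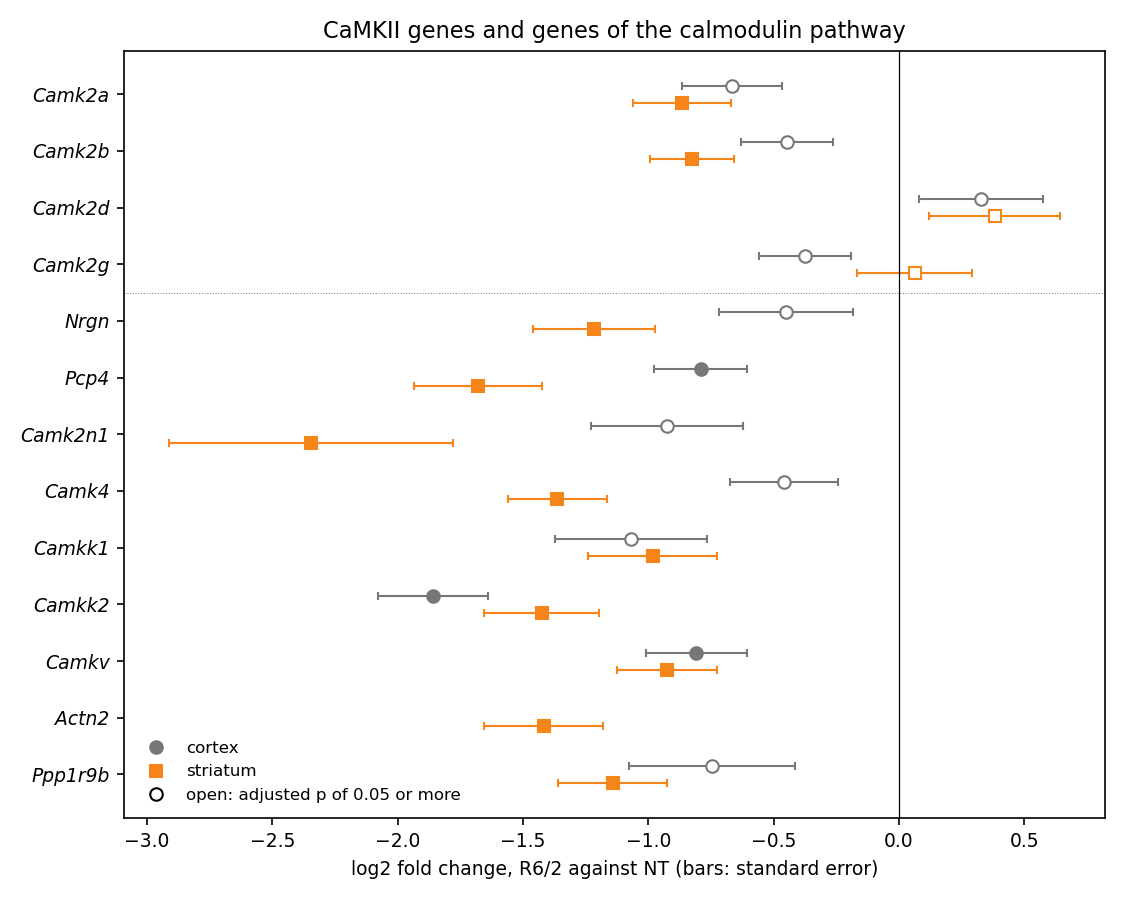
log2 fold change of R6/2 against NT mice for the 4 CaMKII genes (above the line) and for the genes of the 4 lists that passed in at least 1 region (points: edgeR estimates in cortex and striatum; bars: standard error; open points: adjusted p of 0.05 or more). Every filled point lies below 0, from −0.79 for Pcp4 in the cortex to −2.35 for Camk2n1 in the striatum, and Camk2d and striatal Camk2g are the only values above 0. Striatal Camk2n1 rests on few reads.

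Over the 16 samples, log2 levels of the 4 genes were unlike each other except for Camk2d and Camk2g (Pearson r = 0.75) and for Camk2a with Camk2g (0.62) and with Camk2b (0.51). Among 4755 genes with at least 20 reads per sample on average, the most alike were Ptprs (0.91), Phlda3 (0.91) and Rgs12 (0.89) for Camk2a, Cyfip2 (0.92), Mmd2 (0.90) and Ube2g2 (0.90) for Camk2b, Polr2m (0.93), Gprasp1 (0.93) and Appbp2 (0.92) for Camk2d, and Dctn2, Stx1a and Olfm1 (each 0.97) for Camk2g. The 16 points share region, genotype and number of count sets, so these values describe likeness only.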

How the data were processed

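RNA of cortex and striatum from 16 samples was sequenced as PacBio Iso-seq. The authors aligned the reads (the submitters' processing notes name minimap2 2.17-r941 and mm10), assigned them to isoforms with TALON and deposited whole-number read counts per isoform, which were used as deposited, without normalization. The 2 count sets of each of 4 striatal samples were summed. The members and gene lists were chosen with earlier results of these data known.

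Gene reads were the sum of known, ISM, NIC and NNC isoforms, without the genomic class. Levels were compared with edgeR 4.0.16 in R 4.3.3 (TMM, filterByExpr, quasi-likelihood test, Benjamini-Hochberg adjustment, threshold 0.05), with a term for the number of count sets in striatal and 16-sample fits. Isoform usage was tested with diffSpliceDGE (Simes) over complete isoforms of at least 10 reads. Shares and exons per read were compared by two-sided exact permutation over samples (70 arrangements of 4 against 4, 36 within numbers of count sets, scripts in Python 3.11.15). A share of all genes whose groups do not overlap was counted over genes with at least 10 reads per sample on average. Samples had 252885 to 1496196 reads. The reads of the gene itself in a sample set the precision of a share, and 95% Wilson intervals are given for some shares. log2 levels used a prior count of 2.

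Genes named were the 4 members, list genes that passed in either region, the 3 genes most correlated with each member, and isoforms that held at least 5% of complete reads in the mean of a group or passed the isoform test. On simulated counts with changes of 3-fold, the cortical level test recovered 97.3% of 184 changed genes (5876 genes) and the striatal one 98.3% of 181 (7443 genes), and the usage test 52.0% in the cortex (2765 genes), 37.5% in the striatum (4112 genes) and 13.5% between regions (5286 genes). In the usage simulation only isoforms of at least 100 reads were changed, so recovery at fewer reads was not measured. The interaction test of levels recovered 64.6% of 195 (7183 genes). Of the calls, 7.73% in cortical and 8.25% in striatal levels were unchanged genes. Same-numbered samples did not deviate together in each pair, so numbers were not used as pairs. Alternatives were DESeq2 1.42.0, other normalizations, filters, read classes, count sets, known isoforms only, a gene-level F test, a replicate block and each sample left out. Sequences of Camk2a, and the exon structure of NIC and NNC isoforms, were not used here. Some genes of the lists are counted but not reported here by name.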

Additional observations from a re-analysis of the deposited data

Results flagged for a closer look

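In 106 groups of 4 samples, 4 samples stood far from the other samples of their group by Dixon's ratio, and about 1 group in 20 is marked by chance. Striatal NT 4 had 20.9 exons per complete Camk2b read, and the other striatal NT samples 20.7 each. Cortical NT 3 had 15.6 exons per complete Camk2d read, on 8 reads, against 17.2 to 17.4 in the others. Striatal NT 4 had a share of NIC and NNC isoforms of 66.7% for Camk2d, on 3 complete reads, against 25.6 to 30.0%. Cortical R6/2 3 had a share of ISM reads of 79.0% for Camk2a, against 87.5 to 88.2%. These samples include those with the fewest reads of their region, and the part of depth in their values was not tested.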

How the results depend on the processing

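Of the 4 genes, 2 passed in striatal levels. The number was 1 with ISM isoforms left out or the first count set only, and 0 without the term for count sets, with the replicate block (Camk2a adjusted p = 0.0692, Camk2b 0.0565, edgeR), or in samples of 1 or of 2 count sets only, where groups had 2 samples. Leaving out 1 sample gave 0 to 2. The cause was not tested. In cortical levels the number was 0, and 0 to 1 with a sample left out. Between regions it was 3 in NT mice, 1 without ISM reads and 2 to 3 with a sample left out, and 3 in R6/2 mice, 3 to 4 with a sample left out. For isoform usage it was 1 in each region: in the cortex 2 by the F test, 0 with known isoforms only and 0 to 1 with a sample left out, and in the striatum 0 with known isoforms only or without the term, and 1 with each sample left out. Groups separated in 1 family share, 0 with complete reads or the first count set only, 4 in striatal samples of 1 count set and 1 to 2 with a sample left out. They separated in 1 value of exons per read (1 to 3), 3 of NIC and NNC share (3 to 4), 1 of ISM share (1), and 0 of exon inclusion between genotypes (0 to 1, and 1 in striatal samples of either number of sets) or regions (0 to 2, 1 in samples of 1 set and 2 in samples of 2 sets). Between genotypes, striatal samples of 1 or of 2 count sets gave 2 against 2. Full separation there has an exact permutation p of 0.333, and the family shares of a sample are parts of a whole, so these counts show little.

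Signs turned for Camk2g in the striatum (−0.0613 with the first count set, −0.13 in samples of 2 sets, −0.0798 to 0.265 with a sample left out), Camk2b between regions in NT mice (0.0875 without the filter, 0.0678 with the first set, 0.25 without the term, −0.164 to 0.0930 with a sample left out), the Camk2d interaction (−0.00532 with genomic reads, −0.0852 without ISM reads, −0.0200 with the first set, −0.136 to 0.317 with a sample left out), and exons per Camk2b read with ISM reads added (0.648 in the cortex, 0.0657 in the striatum).

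Over all genes, 332 passed in striatal levels, 606 without the filter, 185 with the replicate block, 181 with the first set, 39 without the term, and 55 and 34 in samples of 1 and 2 sets. In cortical levels 200 passed, and 95 without ISM reads. Between regions the term took the number from 2467 to 1101 in NT and from 2014 to 840 in R6/2 mice when left out. The interaction called 3 genes, and 0 to 8 under the alternatives. Isoform usage called 11 genes in the cortex (28 by the F test, 7 with known isoforms), 20 in the striatum (74, 7, 11 with ISM added, 8 with the first set, 3 without the term) and 21 between regions (52 by the F test, 144 with ISM added, 6 with the replicate block). Same-numbered samples did not deviate together in each pair (correlations −0.0726 to 0.174 between genotypes in cortex, −0.381 to 0.147 in striatum, −0.0919 to 0.135 between regions in NT and −0.0282 to 0.268 in R6/2 mice, with 3 of 4 of the last over 0.1), and the block changed the number of members called in no other comparison. Camk2a and Camk2d, with 307 and 345 complete reads, limit what isoform shares can show.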
